A study of Mus musculus with 12 samples.

Results

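The 48 genes described here encode the machinery of mitosis and of the G2/M transition: the kinases and cyclins that start division, the proteins that hold chromosomes on the spindle, the checkpoint that delays anaphase, and the motors and scaffolds that split the cell. They were taken as a named list of symbols and matched to the gene table through the mouse GRCm38 annotation. All 48 were found among 55471 genes, and all 48 passed the filter on low counts that left 17063 genes for testing. RNA was sequenced from LSK cells, a bone marrow fraction negative for lineage markers and positive for Sca1 and Kit, in which blood stem cells and multipotent progenitors are found. Mice of a primary transplant were sampled 6 weeks after tamoxifen. Each group had 2 libraries: dKO (β-catenin and Hoxa9), HOXA9_KO, Bcat_KO (β-catenin), WT, PRMT1_KO and WT_PRMT1. The labels name WT_PRMT1 as the wild type for the PRMT1 experiment. Here dKO, HOXA9_KO, Bcat_KO and WT are treated as 1 other experiment, but the labels do not say that they were prepared together. The titles call the altered groups KO, whereas the genotype field calls them knockdown, and the titles' names are used. The labels do not give strain, age, how tamoxifen acts on the alleles or whether libraries came from separate mice, so p-values measure only the spread between these libraries.

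Entry into mitosis is driven by the kinase Cdk1 with its cyclins, after Cdc25 phosphatases strip inhibitory phosphates from it. Chromosomes then attach through kinetochores to spindle microtubules, and the spindle checkpoint holds back the anaphase-promoting complex until every chromosome is attached. Most of these genes are transcribed in a wave late in the cell cycle, under Foxm1 and the MuvB complex with Mybl2, and are silenced by the DREAM complex in resting cells. Long-term blood stem cells are largely quiescent, and the multipotent progenitors in the LSK gate divide more often.

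Library depth ranged from 17569709 to 40553891 counts. Levels are given as CPM (counts scaled to a common library total) after TMM normalisation, for libraries in the order of the S tags in the table: S6 and S7 for dKO, S4 and S5 for HOXA9_KO, S3 and S4 for Bcat_KO, S1 and S2 for WT, S8 and S9 for PRMT1_KO, and S10 and S11 for WT_PRMT1. Changes are log2 fold changes ± SE from edgeR's quasi-likelihood test, and a gene is called when its p, adjusted by Benjamini-Hochberg over all 17063 genes, is under 0.05. The targeted genes went the way of their labels: Hoxa9 changed by -2.71 in dKO and -2.53 in HOXA9_KO relative to WT, Ctnnb1 by -0.51 in dKO and -0.28 in Bcat_KO, and Prmt1 by -1.33 in PRMT1_KO relative to WT_PRMT1, all called. Prmt1 was also called lower relative to WT in dKO (-0.35, adjusted p = 0.00206) and in HOXA9_KO (-0.27, adjusted p = 0.0290). Xist was at 163 to 202 CPM in the WT and WT_PRMT1 libraries, at 11.2 and 21.9 CPM in Bcat_KO and at most 0.758 CPM in dKO, HOXA9_KO and PRMT1_KO, and the Y-linked Ddx3y ranged over 60.6 to 93.5 CPM in the knockout groups and 0.792 to 2.87 CPM in the wild-type groups. Sex markers thus moved with genotype in each comparison of a knockout with its wild type, so the 2 cannot be told apart there, nor in contrasts built from such comparisons where the markers do not cancel. Between dKO and HOXA9_KO neither marker was called, whereas Xist was lower in dKO than in Bcat_KO (-4.99, adjusted p = 0.00187). The LSK markers were detected in every library, with sums of 1897 to 2595 CPM over 12 genes.

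In dKO libraries nearly the whole set fell. Of the 48 genes 45 were lower than in WT and 0 were higher, against 8.52% of all tested genes called lower, 9.15% higher and 17.7% in either direction. The median change was -1.26, whereas the median over all genes was 0.01. All 48 changes were negative, and in all 48 every dKO library lay below every WT library, which held for 29.1% of all genes. The genes summed to 2248 and 1541 CPM in dKO libraries, against 4102 and 4391 CPM in WT libraries. Bulk RNA cannot tell fewer dividing cells from less of these RNAs per cell.

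**Figure D1:**
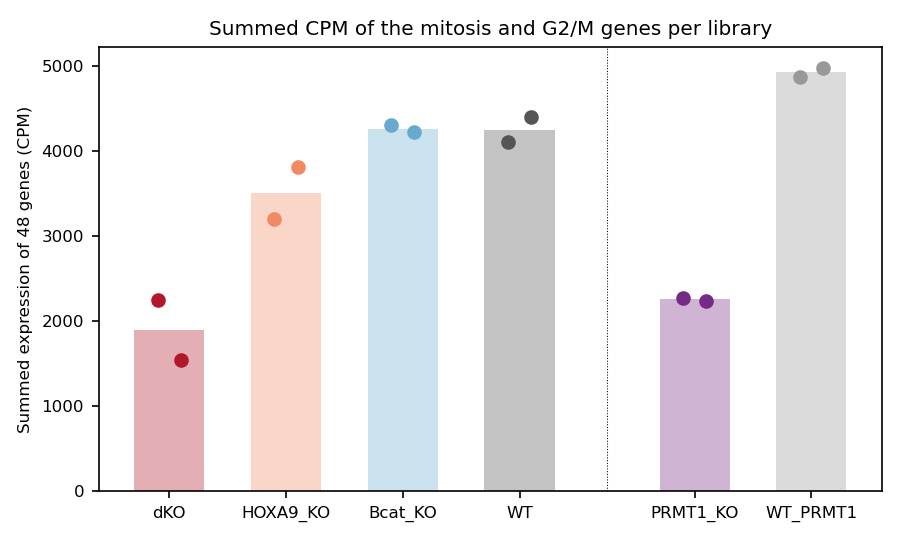
Summed expression of the 48 genes in CPM (y axis) in each of the 6 groups (x axis). Points are single libraries and bars are group means of 2 libraries; the dotted line separates the experiments. The dKO libraries, at 2248 and 1541 CPM, and the PRMT1_KO libraries, at 2274 and 2236 CPM, lie below every other library.

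The plot of summed expression shows 2 low groups, dKO and PRMT1_KO, each below its own wild type without overlap. HOXA9_KO, at 3198 and 3811 CPM, lay between dKO and WT, and Bcat_KO, at 4300 and 4220 CPM, fell within the range of WT. The dKO libraries differed from each other: dKO S6 was above dKO S7 for all 48 genes, with a median ratio of 1.48. In the other groups the libraries differed by less, with median ratios from 0.832 to 1.05.

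Because these genes moved together, their promoters were examined. RefSeq windows on GRCm38.p6, from 250 bases before to 50 after the start, were found for 40 of the 48 genes, in 43 windows. Incenp, Aurkb, Foxm1, Spc24, Ccna2, Cdc25c, Tpx2 and Kif20a had no entry. The motif TTTGAA, a core of the cell-cycle homology region that MuvB complexes bind, was present on either strand (as TTTGAA or its reverse complement TTCAAA) in 79.1% of these windows and in 17.9% of all 32851 windows. The related TTTAAA was present in 20.9% and 13.2%, and CCAAT (or its reverse complement ATTGG), the box bound by NF-Y, in 76.7% and 37.4%. TTTAAA is its own reverse complement, and none of these motifs holds another. TTTGAA and CCAAT occurred together in 67.4% of these windows and 6.95% of all windows. The windows of these genes had a median GC content of 59.0%, against 52.7% for all. Printed here are windows of the 4 genes with TTTGAA and the smallest p in dKO relative to WT, then of Cenpa and Cenpe, which were not called there. Sequences run 5′ to 3′ on the gene's strand, and capitals mark TTTGAA and CCAAT on either strand.
Kif11 (chr19:37376132-37376431, plus strand): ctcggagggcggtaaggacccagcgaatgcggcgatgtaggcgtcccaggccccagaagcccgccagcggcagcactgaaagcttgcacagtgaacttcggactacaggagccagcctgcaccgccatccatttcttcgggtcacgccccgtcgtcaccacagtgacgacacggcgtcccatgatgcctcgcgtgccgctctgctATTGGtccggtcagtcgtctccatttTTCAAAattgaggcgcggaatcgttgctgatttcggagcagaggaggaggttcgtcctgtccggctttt
Cdk1 (chr10:69352863-69353162, minus strand): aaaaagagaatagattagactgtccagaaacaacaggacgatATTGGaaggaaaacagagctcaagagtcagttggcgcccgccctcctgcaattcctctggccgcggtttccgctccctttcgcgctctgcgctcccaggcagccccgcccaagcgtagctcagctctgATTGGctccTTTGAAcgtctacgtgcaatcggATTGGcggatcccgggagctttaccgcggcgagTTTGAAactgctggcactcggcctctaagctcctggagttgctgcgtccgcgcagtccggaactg
Prc1 (chr7:80294201-80294500, plus strand): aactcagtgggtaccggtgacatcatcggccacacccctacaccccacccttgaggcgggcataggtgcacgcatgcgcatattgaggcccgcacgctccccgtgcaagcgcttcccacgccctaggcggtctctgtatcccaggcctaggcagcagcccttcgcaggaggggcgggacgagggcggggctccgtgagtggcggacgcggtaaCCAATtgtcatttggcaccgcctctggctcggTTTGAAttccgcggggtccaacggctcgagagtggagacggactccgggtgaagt
Cenpf (chr1:189688037-189688336, minus strand): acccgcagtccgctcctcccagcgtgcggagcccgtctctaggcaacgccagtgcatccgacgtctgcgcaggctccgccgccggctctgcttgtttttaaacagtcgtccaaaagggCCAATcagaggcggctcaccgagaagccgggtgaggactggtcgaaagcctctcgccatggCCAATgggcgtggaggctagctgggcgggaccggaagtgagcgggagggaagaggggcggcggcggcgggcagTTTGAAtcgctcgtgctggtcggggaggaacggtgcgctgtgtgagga
Cenpa (chr5:30666636-30666935, plus strand): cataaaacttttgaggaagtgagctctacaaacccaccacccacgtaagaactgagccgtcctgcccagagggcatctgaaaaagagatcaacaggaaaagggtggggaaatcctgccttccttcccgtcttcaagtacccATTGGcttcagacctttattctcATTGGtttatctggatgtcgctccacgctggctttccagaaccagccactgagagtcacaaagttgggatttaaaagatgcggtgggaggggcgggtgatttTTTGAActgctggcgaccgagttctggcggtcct
Cenpe (chr3:135212313-135212612, plus strand): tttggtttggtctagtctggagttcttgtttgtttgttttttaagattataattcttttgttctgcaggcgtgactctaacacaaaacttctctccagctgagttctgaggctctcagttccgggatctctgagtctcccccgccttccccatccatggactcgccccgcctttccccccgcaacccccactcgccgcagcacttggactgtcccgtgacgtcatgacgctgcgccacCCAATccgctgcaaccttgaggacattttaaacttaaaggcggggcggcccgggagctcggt
Cenpa holds TTTGAA and CCAAT, as the 4 called genes do, whereas Cenpe holds CCAAT without TTTGAA. The related TTTAAA, which is not in capitals, is present in the printed windows of Cenpe, Cenpa and Cenpf and absent from those of Kif11, Cdk1 and Prc1. The median change in dKO was -1.25 for the 31 genes with TTTGAA and -1.20 for the 9 without, and -1.31 for the 30 with CCAAT and -1.01 for the 10 without. These are descriptions of letters in a window, and no test was made of them.

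The genes of mitotic entry all fell in dKO, 8 of 8, with a median change of -1.40. Cdk1 (chr10:69335146-69352938), the kinase that starts mitosis, had 36.0 and 27.8 CPM in dKO libraries, against 73.4 and 81.4 CPM in WT libraries (-1.28 ± 0.13, adjusted p = 2.95e-06). Cdc25b (chr2:131186949-131198497), a phosphatase that activates Cdk1, had 25.4 and 17.7 CPM in dKO libraries, against 53.1 and 59.9 CPM in WT libraries (-1.39 ± 0.16, adjusted p = 9.79e-06). For both genes the higher dKO library stayed well under the lower WT library. The largest change of all 48 was that of Aurka (chr2:172356190-172370535), the kinase of the spindle poles, at -1.67 ± 0.23 (adjusted p = 0.000320), with 19.6 and 11.4 CPM in dKO libraries and 51.6 and 47.3 CPM in WT libraries. Plk1, a kinase of entry and spindle formation, changed by -1.55, Ccna2 by -1.46 and Ccnb1 by -1.41; these cyclins and Plk1 lost their calls without WT S2, and Plk1 and Ccnb1 also without WT S1.

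The chromosomal passenger complex, which corrects faulty attachments between chromosomes and spindle, fell in full, 4 of 4. Its scaffold Incenp (chr19:9872296-9899551) had 58.8 and 47.1 CPM in dKO libraries, against 112 and 122 CPM in WT libraries (-1.15 ± 0.11, adjusted p = 1.67e-06), the smallest p among the 48. Its kinase Aurkb (chr11:69045647-69051664) had 42.8 and 27.6 CPM in dKO libraries, against 90.7 and 98.7 CPM in WT libraries (-1.43 ± 0.18, adjusted p = 0.000305). Birc5 and Cdca8, the remaining subunits, changed by -1.13 and -1.25. The changes of its 4 subunits lay between -1.43 and -1.13.

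The spindle checkpoint and the factors that switch on the anaphase-promoting complex fell, 7 of 7. Bub1b (chr2:118598211-118641591), which encodes the checkpoint inhibitor BubR1, had 63.8 and 46.2 CPM in dKO libraries, against 144 and 152 CPM in WT libraries (-1.43 ± 0.14, adjusted p = 7.23e-06). Ttk (chr9:83834689-83872389), the kinase that starts checkpoint signalling, had 12.3 and 7.67 CPM in dKO libraries, against 28.4 and 30.9 CPM in WT libraries (-1.57 ± 0.20, adjusted p = 2.67e-05). The smallest changes here were those of Bub3 (-0.64) and Mad2l1 (-0.79), and the largest that of Ube2c (-1.66), the E2 enzyme of the anaphase-promoting complex. Cdc20, its activator, changed by -1.25; Ube2c and Cdc20 lost their calls without WT S2, and Ube2c also without WT S1.

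Of the centromere and kinetochore genes 5 of 7 fell. Cenpf (chr1:189640606-189688086), a large protein of the outer kinetochore, had 15.6 and 10.3 CPM in dKO libraries, against 40.5 and 41.4 CPM in WT libraries (-1.66 ± 0.18, adjusted p = 5.08e-06). Ndc80 (chr17:71496100-71526857), which grips microtubules, had 30.0 and 21.4 CPM in dKO libraries, against 48.2 and 51.2 CPM in WT libraries (-0.95 ± 0.16, adjusted p = 0.000427). Of its partners, Nuf2 changed by -1.20, Spc25 by -1.42 and Spc24 by -0.90, the last lost without WT S1 or WT S2. Cenpa (chr5:30666777-30674830), the histone H3 variant that marks the centromere, had 72.7 and 41.4 CPM in dKO libraries, against 105 and 117 CPM in WT libraries, and its change of -0.96 ± 0.28 (adjusted p = 0.0606) was not called. The kinetochore kinesin Cenpe (chr3:135212537-135273611) was likewise not called, at 19.0 and 12.1 CPM in dKO libraries, against 30.2 and 33.9 CPM in WT libraries (-1.04 ± 0.34, adjusted p = 0.0740). For Cenpa and Cenpe the groups did not overlap.

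Motors of the spindle and chromosomes fell, 6 of 6. Kif11 (chr19:37376403-37421859), the motor that pushes spindle poles apart, had 59.6 and 44.8 CPM in dKO libraries, against 142 and 138 CPM in WT libraries (-1.43 ± 0.13, adjusted p = 2.11e-06). Kif15 (chr9:122951046-123018733), which can act with it, had 28.0 and 19.5 CPM in dKO libraries, against 48.1 and 52.0 CPM in WT libraries (-1.08 ± 0.15, adjusted p = 8.60e-05). Kif2c, which takes microtubules apart at kinetochores, changed by -1.52, Kif22 by -1.33, Kif18b by -1.14 and Kif4 by -1.08. Proteins of spindle assembly fell too, 5 of 5. Hmmr (chr11:40701395-40733422), a microtubule-binding protein of spindle poles, had 20.5 and 15.3 CPM in dKO libraries, against 43.0 and 49.4 CPM in WT libraries (-1.37 ± 0.15, adjusted p = 6.78e-06). Ckap2 (chr8:22168160-22185819), which stabilises spindle microtubules, had 22.0 and 18.6 CPM in dKO libraries, against 40.6 and 43.7 CPM in WT libraries (-1.06 ± 0.14, adjusted p = 3.65e-05). Nusap1 changed by -1.60, Tpx2 by -1.54 and Ckap2l by -0.89.

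Genes of the spindle midzone and cytokinesis fell, 7 of 7. Prc1 (chr7:80294450-80316259), which bundles midzone microtubules, had 20.7 and 16.7 CPM in dKO libraries, against 47.96 and 54.4 CPM in WT libraries (-1.45 ± 0.15, adjusted p = 3.45e-06). Ect2 (chr3:27097222-27153878), the exchange factor that turns on RhoA at the cleavage site, had 26.6 and 17.8 CPM in dKO libraries, against 56.7 and 62.1 CPM in WT libraries (-1.42 ± 0.16, adjusted p = 1.52e-05). Kif23 (chr9:61915905-61946774), the motor of the centralspindlin complex, had 38.6 and 26.5 CPM in dKO libraries, against 81.0 and 85.6 CPM in WT libraries (-1.36 ± 0.15, adjusted p = 2.65e-05), and its partner Racgap1 changed by -0.90. The smallest changes were those of Anln (-0.60) and Kif20b (-0.69), both lost without WT S2 or dKO S7, and Kif20b also without WT S1.

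Of the mitotic chromosome proteins, Top2a (chr11:98992943-99024189), the topoisomerase that untangles sister chromatids, had 285 and 199.7 CPM in dKO libraries, against 526 and 553 CPM in WT libraries (-1.15 ± 0.13, adjusted p = 0.000135). Mki67 (chr7:135689784-135716361), which coats mitotic chromosomes and is widely used to mark proliferating cells, had 118 and 94.0 CPM in dKO libraries, against 176 and 144 CPM in WT libraries and was not called (-0.60 ± 0.32, adjusted p = 0.296). Its groups did not overlap. The transcription factors of the program fell. Foxm1 (chr6:128362967-128376146) had 31.8 and 24.3 CPM in dKO libraries, against 68.0 and 70.1 CPM in WT libraries (-1.30 ± 0.12, adjusted p = 1.88e-06). Mybl2 (chr2:163054687-163084688) had 44.9 and 34.1 CPM in dKO libraries, against 62.9 and 60.9 CPM in WT libraries (-0.65 ± 0.12, adjusted p = 0.00124), a smaller change than that of Foxm1.

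**Figure D2:**
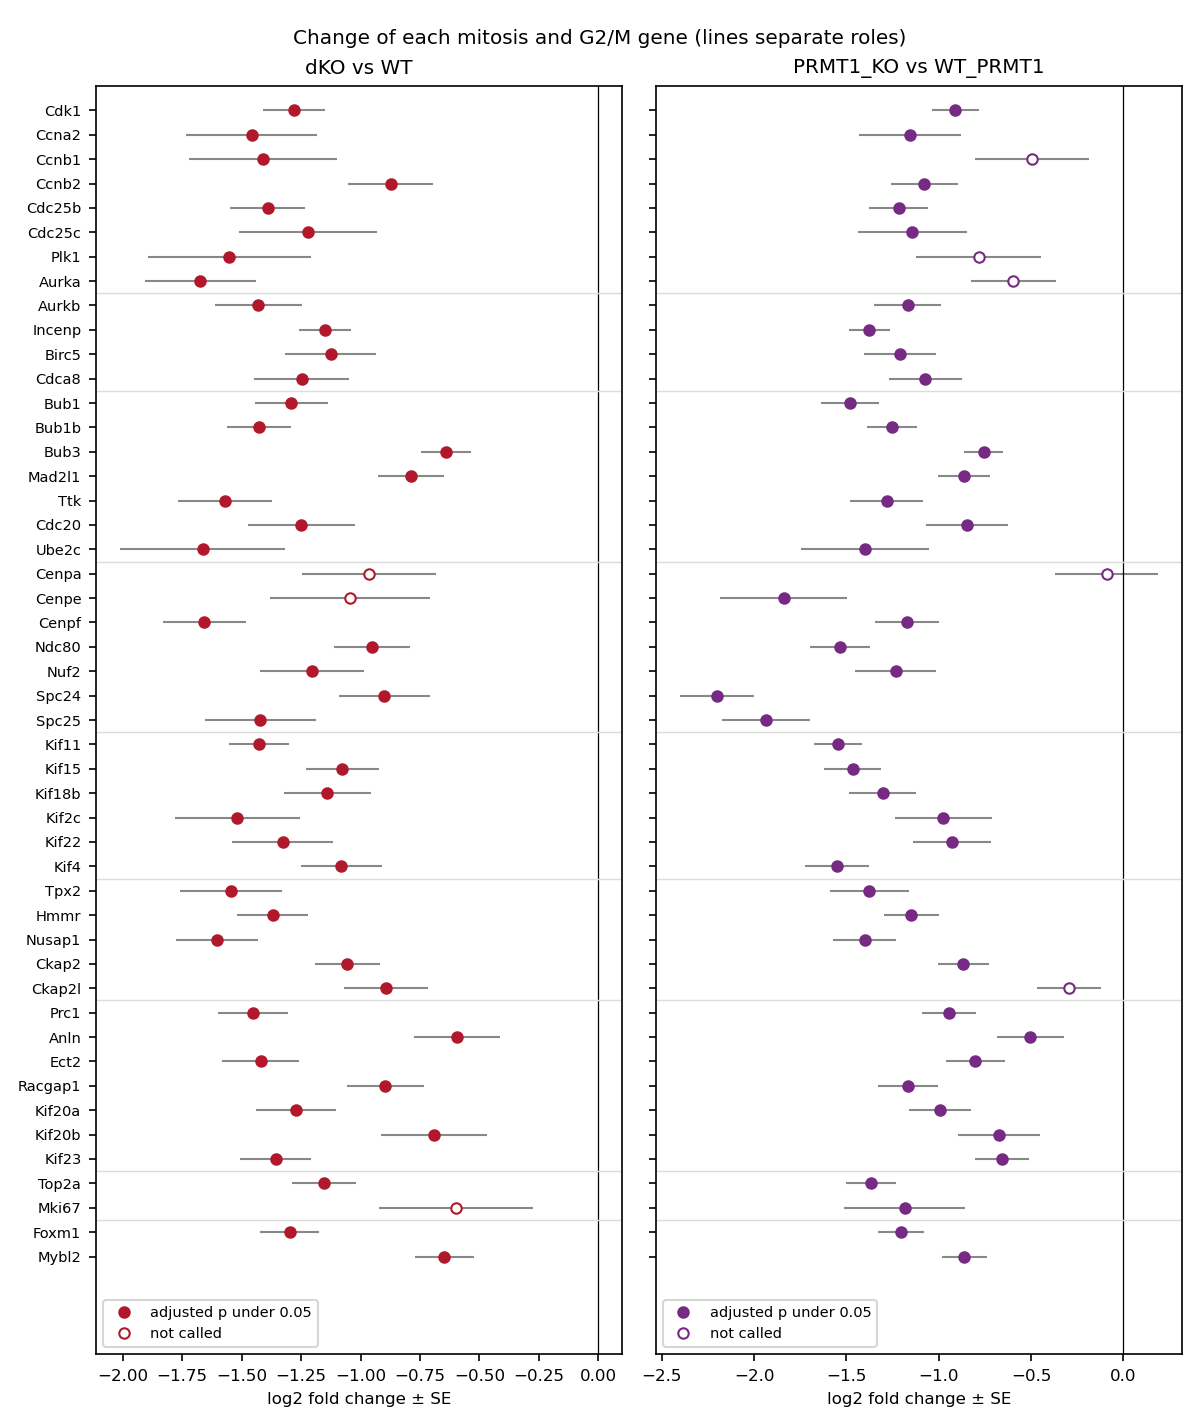
Log2 fold change ± SE (x axis) of each of the 48 genes (y axis) for dKO relative to WT and for PRMT1_KO relative to WT_PRMT1, 2 libraries per group. Filled points were called at an adjusted p under 0.05 and open points were not; grey lines separate roles. All points lie left of 0, and the open ones are Cenpa, Cenpe and Mki67 for dKO and Ccnb1, Plk1, Aurka, Cenpa and Ckap2l for PRMT1_KO.

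The plot of changes shows called genes in every role in both comparisons. Of the 45 calls in dKO relative to WT, 34 were kept when each of the 4 libraries was left out in turn, and the count ranged from 34 without WT S2 to 46 without dKO S6. The calls that were lost were those of Ube2c, Ccna2, Cdc20, Plk1, Spc24, Anln, Ccnb2, Ccnb1, Racgap1, Cdc25c and Kif20b.

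Other genes of the cycle were read from lists of known function. Of 38 further mitotic genes 34 fell in dKO and 0 rose, with a median change of -1.01, among them Pimreg (-1.74), Hjurp (-1.01), the chaperone that loads Cenpa, and Espl1 (-1.07), the protease that opens cohesin. Of 33 genes of DNA synthesis 28 fell and 0 rose, with a median of -0.56, of which Pcna (-0.89), Pold1 (-0.65) and Uhrf1 (-1.28) are examples. Of 13 genes of the inner centromere 5 fell and 0 rose (median -0.43), and of 16 of the anaphase-promoting complex and its regulators 4 fell and 0 rose (median -0.21), against the same 8.52% of all genes called lower. In the list of that complex Cdc23 was called too, the inhibitor Fbxo5 changed by -1.10, the activator Fzr1 by -0.67 and the subunit Anapc5 by -0.40. In the inner centromere list Cenpn changed by -0.84, Cenpk by -0.84 and Cenpi by -0.99, and Cenpm and Cenph fell too.

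Markers of other blood cells were called in dKO as well, where 8.52% of all genes were called lower and 9.15% higher. Of 12 megakaryocyte markers 10 were tested and 9 rose, with sums of 1390.0 to 1548 CPM in dKO libraries and 215 to 260.1 CPM in WT libraries. Members of the marker lists are named after their values were seen. Of 11 B cell markers 9 fell and 1 rose, Ighm, which made up 77.3 to 99.4% of the list's sum in these 2 groups; that sum was 12178 to 24429 CPM in dKO libraries and 3303 to 6771 CPM in WT libraries. Of 13 erythroid markers 1 rose, Epor, and 0 fell, with sums of 206 to 457 CPM in dKO libraries and 397 to 1355 CPM in WT libraries. None of 13 granulocyte markers was called by edgeR, and 0 had an unadjusted p under 0.05. Among 11 T and NK cell markers 1 rose (Klrb1c) and 3 fell (Lck, Cd4 and Il7r), among 8 macrophage markers 0 were called and 1 had an unadjusted p under 0.05, and among 10 endothelial and stromal markers 1 rose (Kdr) and 2 fell (Emcn and Pdgfrb). Of the 12 LSK markers Gata2, Slamf1, Ly6a and Kit rose, and Cd27, Cd34, Flt3, Hlf and Cd48 fell. The part of these cells in the fall of the mitotic genes was not tested.

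With loss of Hoxa9 alone the call was a single gene. In HOXA9_KO relative to WT 1 of the 48 genes fell and 0 rose, against 2.30% of all genes called lower, 4.44% higher and 6.73% in either direction. The gene was Cdk1, with 52.4 and 59.2 CPM in HOXA9_KO libraries, against 73.4 and 81.4 CPM in WT libraries (-0.47 ± 0.13, adjusted p = 0.0327). Leaving out HOXA9_KO S4, WT S1 or WT S2 ended this call, with an adjusted p of up to 0.302. The median change was -0.29, with 44 of 48 changes negative and 31 genes below WT in every library, which held for 25.1% of all genes. At an unadjusted p under 0.05 there were 15 lower genes and 0 higher ones, against 1396 lower and 1879 higher of all 17063 genes. Single libraries moved these values: without HOXA9_KO S4 the median was -0.18 and 3 genes had an unadjusted p under 0.05, and without WT S2 the median was -0.22 and 3 genes did. Without a filter on low counts the count of lower genes was 11, against 543 of all 42654 genes. With only these 4 libraries in the fit it was 10, against 469 of 14448, and with DESeq2 it was 5, against 713 of 17063. Of the 33 DNA synthesis genes 6 fell and 0 rose (median -0.24), and of the 38 further mitotic genes 2 fell, Hjurp and Pimreg.

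Markers of other cells were also called in HOXA9_KO relative to WT, where 2.30% of all genes were called lower and 4.44% higher. Of 10 megakaryocyte markers tested 6 rose and 0 fell, with sums of 878 to 952 CPM in HOXA9_KO libraries and 215 to 260.1 CPM in WT libraries. Of the 12 LSK markers 5 rose (Slamf1, Gata2, Kit, Ly6a and Procr) and 3 fell (Cd27, Cd34 and Flt3). Of 11 T and NK cell markers Lck, Cd4 and Il7r fell, with sums of 128 to 131 CPM in HOXA9_KO libraries and 207 to 211 CPM in WT libraries, and of 10 endothelial and stromal markers Emcn fell. By edgeR 0 of 11 B cell, 13 erythroid, 13 granulocyte and 8 macrophage markers were called, and at an unadjusted p under 0.05 there were 7 B cell, 6 erythroid, 0 granulocyte and 1 macrophage markers. The part of these markers in the changes of the mitotic genes was not tested.

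Few of the 48 genes were called with loss of β-catenin alone. In Bcat_KO relative to WT 3 rose and 0 fell, against 7.48% of all genes called higher, 9.76% lower and 17.2% in either direction, a share below that background. Mki67 had 388 and 387 CPM in Bcat_KO libraries, against 176 and 144 CPM in WT libraries (1.27 ± 0.33, adjusted p = 0.0449). WT_PRMT1 libraries also lay above WT for Mki67, with a log2 CPM of 8.46 and 8.04, against 7.46 and 7.17 in WT. In Bcat_KO libraries it was 8.60 and 8.60. Cenpf had 55.6 and 62.6 CPM in Bcat_KO libraries, against 40.5 and 41.4 CPM in WT libraries (0.53 ± 0.17, adjusted p = 0.0398). It had 43.4 and 48.3 CPM in WT_PRMT1 libraries. Kif20b (chr19:34922361-34975745), a kinesin of cytokinesis, had 30.7 and 25.5 CPM in Bcat_KO libraries, against 16.6 and 17.9 CPM in WT libraries (0.70 ± 0.22, adjusted p = 0.0361). Its log2 CPM in WT_PRMT1 libraries was 4.01 and 4.13, near the 4.06 and 4.17 in WT. For each of the 3 the groups were separate, yet each call was lost without any 1 of the 4 libraries, with adjusted p-values of up to 0.214 for Mki67, 0.205 for Cenpf and 0.188 for Kif20b. The median over the 48 genes was -0.04 and became 0.00 with library-size scaling, and it ranged from -0.15 to -0.01 when each library was left out. With only these 4 libraries in the fit 5 rose and 9 fell, against 1249 and 1301 of all 15281 genes tested. At an unadjusted p under 0.05 in the fit of all libraries 6 were higher and 6 lower, against 2282 and 3158 of all 17063 genes.

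The genes that rose in Bcat_KO have long transcripts, with 10061 exonic bases for Mki67, 15433 for Cenpf and 6957 for Kif20b. Cenpe, with 8620 exonic bases, had 55.9 and 68.5 CPM in Bcat_KO libraries, against 30.2 and 33.9 CPM in WT libraries, and was not called (0.96 ± 0.33, adjusted p = 0.0873). It had 62.5 and 49.8 CPM in WT_PRMT1 libraries. Across the 48 genes the change in Bcat_KO had a Spearman correlation of 0.41 with exonic length, and across all 17063 genes it was 0.02. Over the same 48 genes the correlation was 0.33 for HOXA9_KO relative to WT, 0.29 for dKO relative to WT, 0.29 for WT_PRMT1 relative to WT and -0.03 for PRMT1_KO relative to WT_PRMT1. The comparisons with WT share its libraries and genes are not independent, so this is a description. Bcat_KO libraries were also the deepest, at 29943990 and 40553891 counts, and had the lowest sums over 1972 odorant and vomeronasal receptor genes, 15.2 and 11.2 CPM, against 181 and 137 CPM in WT libraries. Genes with any count were fewest in them, 17917 and 17540, against 26929 and 26325 in WT libraries. The labels do not say whether Bcat_KO and WT libraries were prepared together. Cell markers differed too, where 7.48% of all genes were called higher and 9.76% lower. In Bcat_KO relative to WT 10 of 11 B cell markers fell and 0 rose, while the list's sum was 6905 to 9899 CPM in Bcat_KO libraries and 3303 to 6771 CPM in WT libraries. Of 13 erythroid markers 9 fell and 0 rose, with sums of 86.8 to 96.8 CPM in Bcat_KO libraries and 397 to 1355 CPM in WT libraries. Of 13 granulocyte markers 5 fell and 1 rose (Prtn3), with sums of 1624 to 1696 CPM in Bcat_KO libraries and 996 to 2411 CPM in WT libraries. Of 11 T and NK cell markers 5 fell and 0 rose, of 8 macrophage markers 3 fell and 0 rose, and of 10 endothelial and stromal markers Pdgfrb and Pecam1 rose and Kdr fell. Of 10 megakaryocyte markers tested 4 rose and 0 fell, with sums of 424 to 443 CPM in Bcat_KO libraries and 215 to 260.1 CPM in WT libraries, and of the 12 LSK markers Kit, Slamf1 and Gata2 rose and Ly6a and Flt3 fell. The part of these differences in the changes was not tested.

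**Figure D3:**
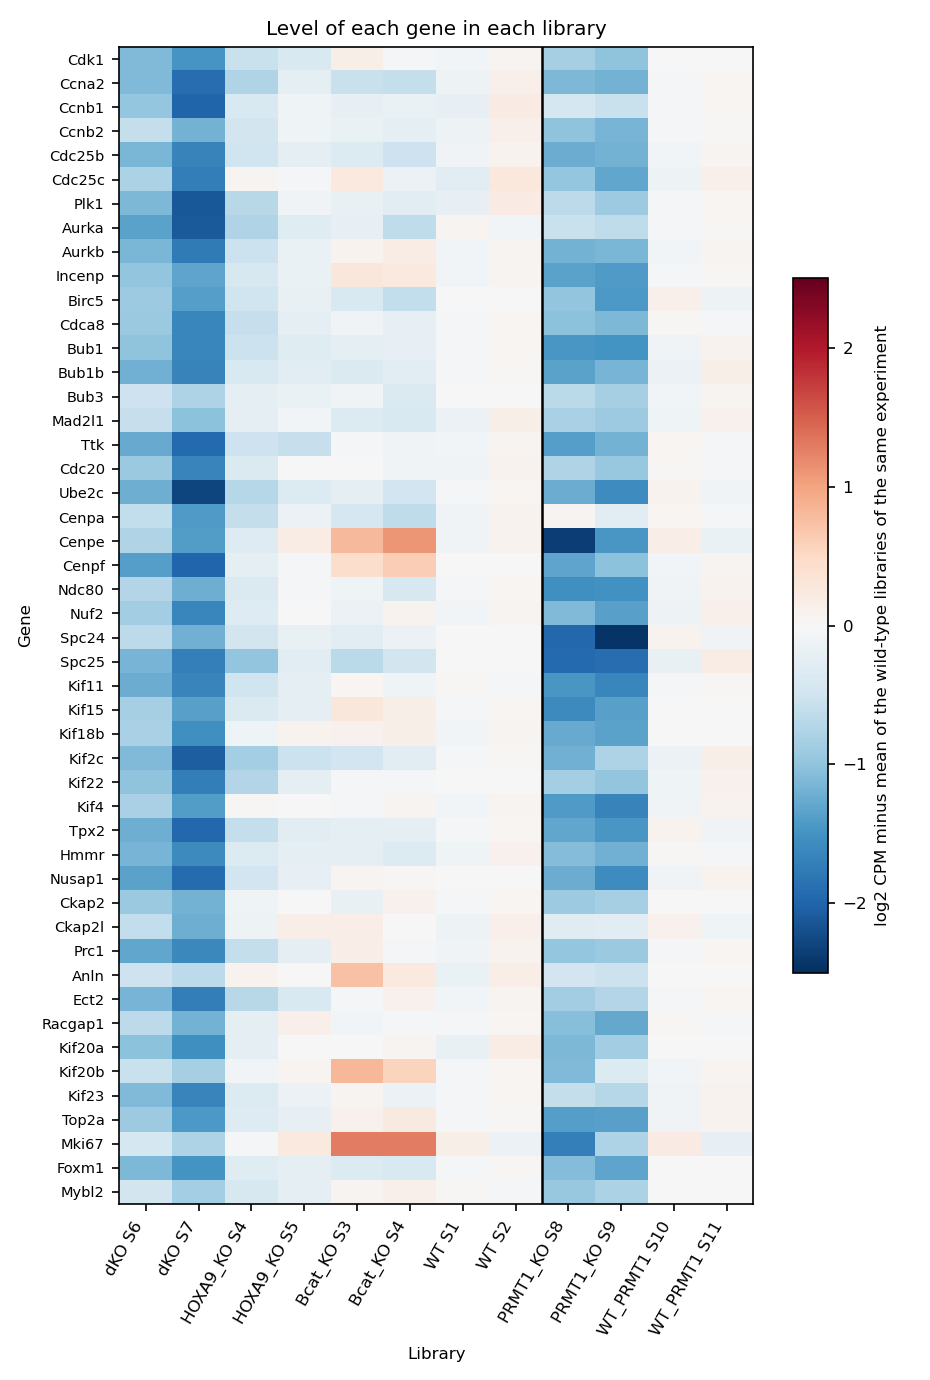
Log2 CPM of each of the 48 genes (rows) in each of the 12 libraries (columns), minus the mean of the wild-type libraries of the same experiment; blue is lower and red is higher. The vertical line separates the experiments. The dKO and PRMT1_KO columns are blue in nearly every row, and Mki67, Cenpe, Cenpf and Kif20b are red in Bcat_KO.

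Against each of the single knockouts, dKO was lower. Relative to HOXA9_KO 30 of the 48 genes fell and 0 rose, with a median of -0.99, against 1.33% of all genes called lower, 0.416% higher and 1.75% in either direction. In all 48 genes every dKO library lay below every HOXA9_KO library, which held for 20.8% of all genes. Cdk1 had 36.0 and 27.8 CPM in dKO libraries, against 52.4 and 59.2 CPM in HOXA9_KO libraries (-0.81 ± 0.13, adjusted p = 0.00307). Kif11 had 59.6 and 44.8 CPM in dKO libraries, against 98.7 and 119 CPM in HOXA9_KO libraries (-1.06 ± 0.13, adjusted p = 0.000723). Without HOXA9_KO S5 16 genes were called and without dKO S6 44 were, and 15 of the 30 calls were kept when each library was left out in turn. With only these 4 libraries in the edgeR fit 0 of the 48 genes were called, and 42 had an unadjusted p under 0.05. That fit called only 3 of all 14836 genes tested. DESeq2 called 44 as lower, against 391 of all 17063 genes. Relative to Bcat_KO 46 of 48 fell and 0 rose, with a median of -1.21, against 11.97% of all genes called lower, 16.2% higher and 28.1% in either direction. There 8 of 13 erythroid and 9 of 10 megakaryocyte markers rose and 0 fell, and 8 of 13 granulocyte markers rose and 1 fell. Of 12 LSK markers 5 rose and 5 fell. Odorant and vomeronasal receptor genes summed to 91.3 and 86.3 CPM in dKO libraries, against 15.2 and 11.2 CPM in Bcat_KO libraries. The part of these differences in the fall was not tested.

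Whether the combined loss exceeded the sum of the single losses was tested as an interaction on the log2 scale, the difference between the change of dKO relative to HOXA9_KO and that of Bcat_KO relative to WT. It was below 0 for all 48 genes, with a median of -0.93, and was called for 23, all negative, against 3.90% of all genes called lower, 4.54% higher and 8.43% in either direction. Sex markers do not cancel in this contrast, since they differ between Bcat_KO and WT and not between dKO and HOXA9_KO: Ddx3y departed by -4.60 ± 0.31 (adjusted p = 6.70e-06) and Xist by 4.04 ± 1.13 (adjusted p = 0.0858, not called). The genotype and the sex markers therefore cannot be told apart in it. Ctnnb1 itself departed by -0.35 ± 0.10 (adjusted p = 0.0462). It changed by -0.63 in dKO relative to HOXA9_KO and by -0.28 in Bcat_KO relative to WT. The fall of Ctnnb1 RNA was thus larger in the former, and its part in the departure of the mitotic genes was not tested. Markers of other cells departed as well, with 8 of 13 erythroid, 7 of 11 T and NK cell, 2 of 11 B cell, 2 of 13 granulocyte and 2 of 8 macrophage markers called higher and 0 lower, 1 of 10 megakaryocyte markers lower, 1 of 12 LSK markers higher and 3 lower, and 1 of 10 endothelial and stromal markers in each direction. Their part in the departure of the mitotic genes was not tested. The 6 genes with the smallest p were Cenpf at -2.06 ± 0.24 (adjusted p = 9.21e-05), Incenp at -1.14 ± 0.15 (adjusted p = 0.000271), Kif11 at -1.05 ± 0.18 (adjusted p = 0.00270), Prc1 at -1.11 ± 0.21 (adjusted p = 0.00365), Ckap2 at -0.97 ± 0.19 (adjusted p = 0.00560) and Kif18b at -1.26 ± 0.25 (adjusted p = 0.00618). Incenp shows the pattern: it had 58.8 and 47.1 CPM in dKO, 88.8 and 105 CPM in HOXA9_KO, 143 and 139.5 CPM in Bcat_KO and 112 and 122 CPM in WT. Its level was lowest in dKO, intermediate in HOXA9_KO and highest in Bcat_KO. Cenpf had 15.6 and 10.3 CPM in dKO, 34.5 and 40.2 CPM in HOXA9_KO, 55.6 and 62.6 CPM in Bcat_KO and 40.5 and 41.4 CPM in WT, so part of its departure lies in the higher level in Bcat_KO. Kif18b (chr11:102905529-102925124), a motor that shortens astral microtubules, had 20.1 and 12.2 CPM in dKO, 33.0 and 37.8 CPM in HOXA9_KO, 38.3 and 39.5 CPM in Bcat_KO and 33.7 and 37.5 CPM in WT, so its level was lowest in dKO. Its Bcat_KO libraries also lay above those of HOXA9_KO and WT, and its change in Bcat_KO relative to WT was not called (adjusted p = 0.671). Of the 23 calls 12 were kept when each of the 8 libraries was left out in turn, and the count ranged from 12 without WT S1 to 41 without dKO S6; it was 15 without Bcat_KO S3. Of the 38 further mitotic genes 12 were called in the same direction, and of the 33 DNA synthesis genes 7.

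PRMT1_KO lowered most of the 48 genes as well, in its own experiment, which shares no library with the others. Of the 48 genes 43 fell relative to WT_PRMT1 and 0 rose, with a median of -1.16, against 15.99% of all genes called lower, 16.6% higher and 32.5% in either direction. The genes summed to 2274 and 2236 CPM in PRMT1_KO libraries, against 4868 and 4970 CPM in WT_PRMT1 libraries. In 47 genes every PRMT1_KO library lay below every WT_PRMT1 library, which held for 35.2% of all genes. Of these genes 41 were also called lower in dKO relative to WT. Aurka, Plk1, Ccnb1 and Ckap2l were called in dKO and not in PRMT1_KO, and Cenpe and Mki67 in PRMT1_KO and not in dKO; of these 6 the difference between the changes was itself called for Aurka, as described further on.

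The passenger scaffold Incenp had 54.3 and 51.6 CPM in PRMT1_KO libraries, against 135 and 139.8 CPM in WT_PRMT1 libraries (-1.38 ± 0.11, adjusted p = 6.09e-08). The spindle motor Kif11 had 62.2 and 54.9 CPM in PRMT1_KO libraries, against 166 and 175 CPM in WT_PRMT1 libraries (-1.55 ± 0.13, adjusted p = 2.58e-07). Foxm1 had 43.9 and 37.2 CPM in PRMT1_KO libraries, against 94.0 and 92.6 CPM in WT_PRMT1 libraries (-1.20 ± 0.12, adjusted p = 1.09e-06). In each of these the PRMT1_KO libraries were close together and far below both controls. Kif15 had 19.2 and 22.7 CPM in PRMT1_KO libraries, against 58.0 and 58.1 CPM in WT_PRMT1 libraries (-1.47 ± 0.15, adjusted p = 1.28e-06). Ndc80 had 22.6 and 22.9 CPM in PRMT1_KO libraries, against 61.5 and 70.1 CPM in WT_PRMT1 libraries (-1.53 ± 0.16, adjusted p = 1.48e-06). Kif4 (chrX:100625737-100727214), a motor that organises chromosome arms and the midzone, had 17.5 and 14.5 CPM in PRMT1_KO libraries, against 43.6 and 49.8 CPM in WT_PRMT1 libraries (-1.55 ± 0.17, adjusted p = 2.39e-06). The largest fall of the 48 was in the kinetochore subunit Spc24 (chr9:21755442-21760303), which had 23.8 and 16.9 CPM in PRMT1_KO libraries, against 99.1 and 87.2 CPM in WT_PRMT1 libraries (-2.20 ± 0.20, adjusted p = 9.14e-06). Its partner Spc25 changed by -1.94, and Cenpe by -1.84.

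The genes not called in PRMT1_KO were Aurka, Plk1, Ccnb1, Ckap2l and Cenpa. Aurka changed by -0.60 ± 0.23 (adjusted p = 0.0660), Plk1 by -0.78 ± 0.34 (adjusted p = 0.126), Ccnb1 by -0.50 ± 0.31 (adjusted p = 0.278), Ckap2l by -0.30 ± 0.17 (adjusted p = 0.220) and Cenpa by -0.09 ± 0.28 (adjusted p = 0.850). Cenpa had 104 and 81.6 CPM in PRMT1_KO libraries, against 102 and 95.2 CPM in WT_PRMT1 libraries, and its groups overlapped, the only case among the 48. When each library was left out in turn, 34 of the 43 calls were kept, and the count ranged from 34 to 37. Lost calls were those of Ube2c, Ccna2, Cdc20, Anln, Kif2c, Kif22, Mki67, Cdc25c and Kif20b. Of the 33 DNA synthesis genes 30 fell (median -0.90), and of the 38 further mitotic genes 30 fell (median -1.03); 0 rose in either list. Of the 13 inner centromere genes 7 fell, and of 16 genes of the anaphase-promoting complex 8 fell and 3 rose, Anapc16, Cdc26 and Cdc27. Megakaryocyte markers rose here too, 9 of 10 tested, with sums of 1038 to 1077 CPM in PRMT1_KO libraries and 86.2 to 86.7 CPM in WT_PRMT1 libraries, and 3 of 13 granulocyte markers rose, Prtn3, Ctsg and Mpo, with sums of 5958 to 6265 CPM in PRMT1_KO libraries and 1477 to 1577 CPM in WT_PRMT1 libraries; 10 of 11 B cell markers fell. Of the 12 LSK markers 7 rose, among them Ly6a, Gata2, Kit, Slamf1, Cd27 and Procr, and 1 fell, Cd48. Of 13 erythroid markers 4 rose (Rhag, Epor, Ermap and Klf1) and 6 fell, Trim10, Alas2 and the globins Hbb-bs, Hbb-bt, Hba-a1 and Hba-a2, with sums of 217 to 219 CPM in PRMT1_KO libraries and 764 to 840.2 CPM in WT_PRMT1 libraries. Of 11 T and NK cell markers Gzmb and Nkg7 rose and Lck, Cd8a and Cd3g fell, of 10 endothelial and stromal markers Pdgfrb and Pecam1 rose and Col1a1, Kdr and Emcn fell, and of 8 macrophage markers Cd68 fell. Of all genes 16.6% were called higher and 15.99% lower in this comparison. The part of these markers in the fall was not tested.

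**Figure D4:**
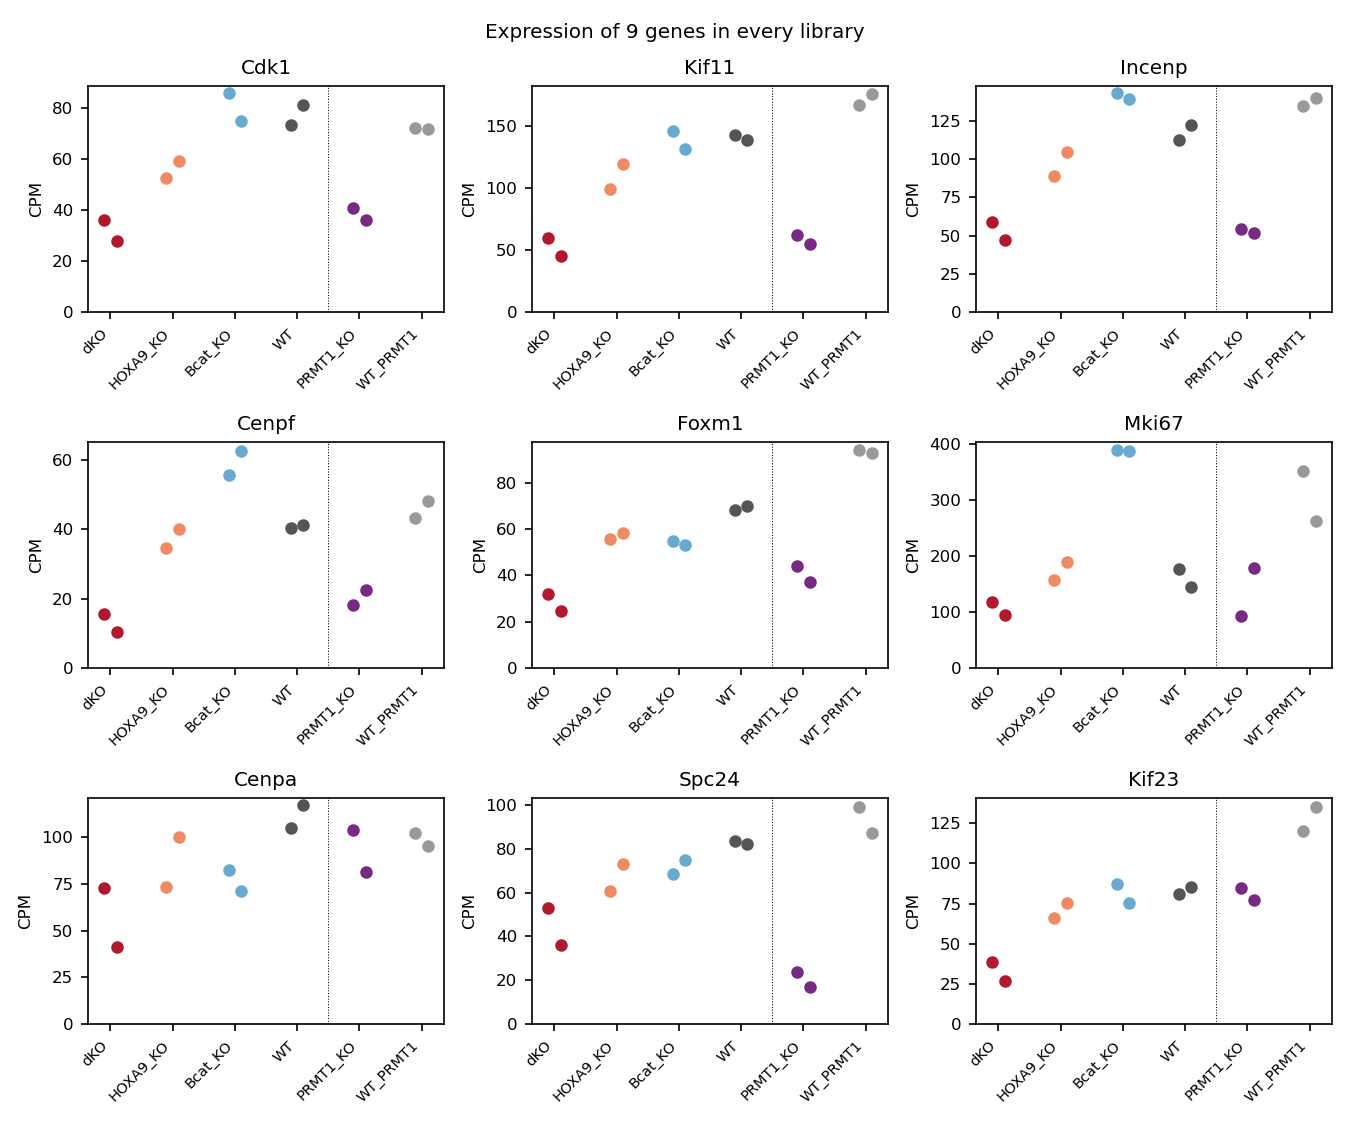
Expression of 9 genes in CPM (y axis, each from 0) in the 2 libraries of each group (x axis), 1 point per library. The dotted line separates the experiments. Kif11, Incenp, Cdk1 and Foxm1 are low in dKO and PRMT1_KO; Spc24 is lowest in PRMT1_KO, Cenpa overlaps its controls there, and Mki67 is highest in Bcat_KO.

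The changes in dKO and PRMT1_KO were compared directly, as the difference between the change of dKO relative to WT and that of PRMT1_KO relative to WT_PRMT1. Sex markers did not cancel fully in it: Ddx3y differed by -1.26 ± 0.35 (adjusted p = 0.0269) and Xist by -0.42 ± 0.98 (adjusted p = 0.847, not called). Genotype and sex markers therefore cannot be told apart in this contrast. Of the 48 genes 1 was called higher and 2 lower, against 7.93% of all genes called higher, 7.75% lower and 15.7% in either direction, with a median of -0.17. Spc24 fell less in dKO than in PRMT1_KO (1.30 ± 0.27, adjusted p = 0.00809), with 52.9 and 36.0 CPM in dKO libraries, against 83.5 and 82.4 CPM in WT libraries. Aurka fell more in dKO (-1.08 ± 0.32, adjusted p = 0.0410); it had 26.8 and 25.5 CPM in PRMT1_KO libraries, against 38.8 and 40.2 CPM in WT_PRMT1 libraries. Kif23 likewise fell more in dKO (-0.70 ± 0.21, adjusted p = 0.0347), with 84.8 and 77.4 CPM in PRMT1_KO libraries, against 120.4 and 135 CPM in WT_PRMT1 libraries. The median of the 48 genes depended on which dKO library was used: it was -0.47 without dKO S6 and 0.070 without dKO S7. Over all genes the median was -0.037 and -0.013 in the same fits. Without WT S1 or without WT S2 0 were called. Among the 33 DNA synthesis genes 10 were higher and 1 was lower (Cdt1) in this difference, with a median of 0.31. Cell markers differed too: 5 of 12 LSK and 5 of 10 megakaryocyte markers were lower and 0 higher. Of 11 T and NK cell markers 3 were lower and 0 higher, and of 13 erythroid markers 2 and 1. In the endothelial and stromal list 2 were lower and 2 higher, 1 B cell marker was higher and 1 granulocyte marker lower. Their part in the difference was not tested.

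Between the wild-type groups few of the 48 genes were called. In WT_PRMT1 relative to WT 2 rose and 0 fell, against 3.71% of all genes called higher, 3.87% lower and 7.58% in either direction, with a median of 0.13, so the count was near or below these shares. Kif23 had 120.4 and 135 CPM in WT_PRMT1 libraries, against 81.0 and 85.6 CPM in WT libraries (0.62 ± 0.15, adjusted p = 0.0181). Foxm1 had 94.0 and 92.6 CPM in WT_PRMT1 libraries, against 68.0 and 70.1 CPM in WT libraries (0.43 ± 0.12, adjusted p = 0.0369). Both calls were lost without WT S1, without WT S2 or without WT_PRMT1 S11, and that of Foxm1 also without WT_PRMT1 S10. Mki67 had the largest change of the 48 genes, 0.94, and was not called. With limma-voom 8 were called, all higher, against 1079 of all 17063 genes called higher. At an unadjusted p under 0.05 12 were higher and 0 lower, against 1689 and 1722 of all genes.

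Per kilobase of exon, the most abundant of the 48 RNAs in WT were Ccnb2 at 81.4, Cdc20 at 61.7 and Top2a at 59.8 CPM per kilobase, and the least abundant Anln at 2.38 and Kif20b at 2.48, around a median of 14.5. Ccnb2 was also first in dKO, at 44.4 CPM per kilobase, where the median was 6.40 and Cenpf was last at 0.841. Exons of 13 of the 48 genes overlap another gene on the opposite strand, by up to 1271 bases for Kif20a and Cdc23. The library kit keeps strand, but how strand was used in counting is not stated by the sources, so reads in those overlaps could belong to either gene.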

How the data were processed

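RNA was sequenced in 12 LSK libraries in 6 groups of 2. The deposited file holds read counts per gene, made by the authors; the tools named in the submitters' processing notes are Trim Galore 0.6.6 (trimming), STAR 2.7.6a (alignment, GRCm38/mm10) and featureCounts (counting). The RNA kit (RNeasy Plus Micro) and the library kit (NEB Ultra II Directional) are per the labels' protocols. Even counts made up 67.1 to 75.9% of nonzero values, so both mates of a pair appear to have been counted. Columns carry S tags, columns named control were read as WT, and 0 columns of per-sample values were left unused. Libraries held 17569709 to 40553891 counts, and no libraries were identical.

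The analysis used edgeR 4.0.16 in R 4.3.3: filterByExpr at a minimum count of 10 (17063 genes), TMM, a quasi-likelihood fit with robust estimation and 1 mean per group over all 12 libraries (6 residual degrees of freedom), 9 comparisons, and Benjamini-Hochberg adjustment over all genes tested. The SE of a change was taken as its size over the square root of its F value. Alternatives were RLE size factors, library-size scaling, TMM without mitochondrial, haemoglobin and member genes, no filter, a mean of at least 5 CPM, DESeq2 1.42.0, limma 3.58.1 voom with quality weights, only the groups compared, leaving out each library, and, chosen after seeing the data, no robust estimation. The members and lists were chosen with earlier results of these data known. Values per library are given for 26 genes: per role those with the smallest p in dKO, those not called there, and those called in the other comparisons (6 with the smallest p where more were called). On simulated counts in 16108 genes, 60% of changes of 1 log2 unit were recovered for dKO relative to WT and 27% for the departure from additivity, with 12 and 3 calls among unchanged genes. The simulation gave all groups the same spread, whereas the dKO libraries differed from each other more than those of other groups. These figures may therefore not hold for dKO. Promoters are from RefSeq. Python 3.11.15, pandas 2.3.3, data.table (version 1.17.8) and matplotlib 3.10.9 were also used.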

Additional observations from a re-analysis of the deposited data

Results flagged for a closer look

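The dKO change departed from the sum of the single changes for 23 of the 48 genes, against 8.43% of all genes called in either direction. That is, the change between dKO and HOXA9_KO differed from that between Bcat_KO and WT. The sex marker Ddx3y departed too, by -4.60 (adjusted p = 6.70e-06), so genotype and sex markers cannot be told apart in this contrast. Ctnnb1 also departed, by -0.35 (adjusted p = 0.0462), so its fall was not equal in the changes compared. By the smallest p, the departures were -2.06 for Cenpf, -1.14 for Incenp, -1.05 for Kif11, -1.11 for Prc1, -0.97 for Ckap2 and -1.26 for Kif18b. Each of these 6 calls was kept when any 1 of the 8 libraries was left out.

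The change in dKO differed from that in PRMT1_KO for 3 of the 48 genes, against 15.7% of all genes called in either direction. This count is below that background. The differences were 1.30 for Spc24, -1.08 for Aurka and -0.70 for Kif23 on the log2 scale. The sex marker Ddx3y differed too, by -1.26 (adjusted p = 0.0269), so genotype and sex markers cannot be told apart in this contrast either. The calls were lost when some libraries were left out, with adjusted p-values of up to 0.0523 for Spc24, 0.149 for Aurka and 0.136 for Kif23. Groups of 2 libraries are too small for a test of single outlying libraries.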

How the results depend on the processing

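In dKO relative to WT, PRMT1_KO relative to WT_PRMT1 and dKO relative to Bcat_KO, the count of called genes stayed within 1.5 times under every alternative, and no called gene changed sign in any of the 9 comparisons. Calls in HOXA9_KO relative to WT numbered 2 with RLE size factors, library-size scaling or TMM without mitochondrial, haemoglobin and member genes. These stood against 1160, 1105 and 1164 of all 17063 genes. They numbered 2 with a mean of at least 5 CPM, against 1162 of 10400. With limma-voom there were 3 and with DESeq2 5, against 1244 and 1646 of 17063. With only the groups compared there were 10, against 1229 of 14448, and with no filter 11, against 1514 of 42654. With no robust estimation there were 0 (17 at an unadjusted p under 0.05), against 909 of 17063. Calls in Bcat_KO relative to WT numbered 5 with limma-voom and 7 with DESeq2, against 2274 and 3738 of all 17063 genes. They numbered 9 with no filter, against 2963 of 42654, and 14 with only the groups compared, against 2550 of 15281. In WT_PRMT1 relative to WT they numbered 6 with no filter, against 1675 of 42654, and 6 with DESeq2, against 1869 of 17063. They numbered 8 with limma-voom and 1 with no robust estimation, against 1832 and 1136 of 17063. With only the groups compared they numbered 10, against 2294 of 14687. In the difference between the dKO and PRMT1_KO changes they numbered 6 with no filter, against 2832 of 42654. They numbered 5 with limma-voom and 1 with no robust estimation, against 2921 and 2461 of 17063. In dKO relative to HOXA9_KO 0 were called with only the groups compared (42 at an unadjusted p under 0.05), where 3 of all 14836 genes were called. The cause was not tested.

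Leaving out each library in turn, with the lone library assumed to vary like the other groups, gave 34 to 46 calls in dKO relative to WT, 0 to 5 in HOXA9_KO, 0 to 1 in Bcat_KO, 34 to 37 in PRMT1_KO, 16 to 44 in dKO relative to HOXA9_KO, 37 to 48 in dKO relative to Bcat_KO, 12 to 41 in the departure from additivity, 0 to 20 in the difference between dKO and PRMT1_KO and 0 to 1 in WT_PRMT1 relative to WT. The median of that difference turned from negative (-0.17) to positive, 0.070, without dKO S7, and was -0.47 without dKO S6. In the last 150 bases of the promoter windows TTTGAA was present in 72.1% of the windows of these genes and 8.01% of all, and CCAAT in 69.8% and 23.4%. No paired analysis was possible because the table's columns carry S tags and no replicate numbers.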

Other observations

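Of 12 genes that restrain G2/M entry or the cell cycle, 3 rose and 5 fell in dKO relative to WT, against 9.15% of all genes called higher, 8.52% lower and 17.7% in either direction. Cdkn1c changed by 1.30, Cdkn1a by 0.87 and Ccng1 by 0.27, whereas Wee1, the kinase that inhibits Cdk1, changed by -0.74, Btg2 by -0.68, Gadd45a by -0.62, Cdkn1b by -0.53 and Btg1 by -0.29. In PRMT1_KO relative to WT_PRMT1 4 of the 12 rose, Gadd45g (1.74), Cdkn1c (0.70), Btg1 (0.57) and Ccng2 (0.51), and 1 fell, Pkmyt1 (-2.27), a kinase that also inhibits Cdk1. The background there was 16.6% of all genes called higher, 15.99% lower and 32.5% in either direction, so 5 calls among 12 genes are not far from it.

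Of 14 genes of the MuvB and DREAM complexes and NF-Y, 4 fell and 1 rose in dKO relative to WT, against the same shares of all genes. The one that rose was Rbl2 (0.67), a pocket protein of DREAM, and those that fell were Rbbp4 (-0.44), Tfdp1 (-0.36), Nfyb (-0.51) and Nfya (-0.34). In PRMT1_KO relative to WT_PRMT1 6 fell and 1 rose, again Rbl2 (0.69).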
